A study of Homo sapiens with 6 samples.

Results

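The 6 genes described here are the 4 members of the MITF/TFE family of transcription factors (MITF, TFEB, TFE3 and TFEC) and both PGC1 coactivators (PPARGC1A and PPARGC1B). They were taken by gene identifier from an RNA-seq count table of 58721 genes, and all 6 were found and passed the filter on low counts that left 19263 genes for testing. The RNA came from A375, an established human melanoma cell line, grown in DMEM medium with bovine serum. The 3 control libraries came from cells given a guide RNA against mCherry, a fluorescent protein gene that human cells lack, and their genotype is labelled WT. The other 3 libraries came from cells given a guide RNA against SOX10, the neural crest transcription factor that maintains the melanocyte lineage, and are labelled as SOX10 knockout. The position of the guide, the time from editing to harvest, and the choice of a pool or of 1 clone were not given in the sources used here. Nothing in the labels ties replicates to separate cultures, so p-values here cover library-to-library spread only, and that spread may be technical.

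MITF, TFEB, TFE3 and TFEC are closely related proteins with a basic helix-loop-helix and a leucine zipper, which bind E-box DNA as pairs of the same or of different family members. MITF is best known for driving pigment and survival genes in melanocytes and melanoma, and one of its promoters is a textbook target of SOX10. TFEB and TFE3 are known for switching on lysosome and autophagy genes when the kinase complex mTORC1 on the lysosome is inactive, and TFEC is best known from macrophages. PPARGC1A and PPARGC1B encode PGC1-alpha and PGC1-beta, coactivators that do not bind DNA themselves but join nuclear receptors and other factors at genes of mitochondrial respiration. PPARGC1A is itself a known MITF target in melanoma.

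The likeness of the 4 factors is visible in DNA that encodes a later part of their basic helix-loop-helix region, past its basic stretch. It bears on how well counts can be told apart between them. The following 60 bases of coding sequence from GENCODE 29 transcripts run 5′ to 3′, with capitals where a gene differs from MITF.
MITF: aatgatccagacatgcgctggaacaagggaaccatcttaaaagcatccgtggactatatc
TFEB: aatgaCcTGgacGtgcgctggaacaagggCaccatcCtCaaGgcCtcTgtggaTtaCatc
TFE3: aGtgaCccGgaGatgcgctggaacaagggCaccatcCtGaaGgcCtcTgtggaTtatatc
TFEC: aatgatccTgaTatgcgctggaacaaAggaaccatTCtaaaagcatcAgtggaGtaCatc
In this stretch 52 bases of TFEC, 49 of TFE3 and 48 of TFEB were the same as in MITF. Over whole transcripts the longest run shared by any pair of the 4 was 25 bases, between TFEB and TFE3, and the longest shared by PPARGC1A and PPARGC1B was 14 bases.

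The DNA before the transcription starts of the same genes was read from RefSeq windows of GRCh38.p14 that reach from 250 bases before to 50 bases after a start, 12 windows for the 6 genes. They were searched on both strands for TGACGTCA (the cAMP response element), CACGTG (an E-box), CATGTG (the core of the M-box that MITF binds), ATCAAAG (bound by LEF and TCF factors), and ACAAAG and ACAATG (bound by SOX factors). None of these strings contains another. The first stretch below lies before the start inside the MITF gene that serves its melanocyte form; the next lie before an outer and an inner RefSeq start of PPARGC1A; the last lies before a RefSeq start of PPARGC1B and holds no match, for contrast. The outer PPARGC1A start lies outside the borders of that gene in GENCODE 29. Around the inner start only 2 stretches of 30 bases with matches are shown, and both are exon sequence of the gene in GENCODE 29. The PPARGC1B start lies inside the borders of its gene. Capitals mark matches, and each stretch is written on the strand of its gene.
MITF, chr3:69936342-69936586, plus strand: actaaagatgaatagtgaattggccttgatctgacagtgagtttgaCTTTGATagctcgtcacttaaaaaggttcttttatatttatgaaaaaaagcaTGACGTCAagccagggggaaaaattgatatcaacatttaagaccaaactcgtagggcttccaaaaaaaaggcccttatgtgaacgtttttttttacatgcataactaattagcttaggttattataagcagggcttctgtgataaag
PPARGC1A outer start, chr4:24472906-24473155, minus strand: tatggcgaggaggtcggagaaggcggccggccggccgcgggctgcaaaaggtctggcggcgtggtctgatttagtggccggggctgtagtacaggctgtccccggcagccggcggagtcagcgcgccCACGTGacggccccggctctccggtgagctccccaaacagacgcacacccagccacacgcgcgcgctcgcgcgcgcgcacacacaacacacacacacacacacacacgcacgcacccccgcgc
PPARGC1A inner start, chr4:23881213-23881242, minus strand: gtgaatctgatcCATGTGtaaggaaaacag
PPARGC1A inner start, chr4:23881117-23881146, minus strand: ctctgttgcCTTTGTgCATTGTttgaagga
PPARGC1B, chr5:149771690-149771939, plus strand: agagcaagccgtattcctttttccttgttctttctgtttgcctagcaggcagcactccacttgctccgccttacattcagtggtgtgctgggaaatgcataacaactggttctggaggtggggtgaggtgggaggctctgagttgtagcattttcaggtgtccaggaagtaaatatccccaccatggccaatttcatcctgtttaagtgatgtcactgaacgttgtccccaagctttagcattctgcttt
In the MITF window, CTTTGAT, the reverse complement of ATCAAAG, began at position -204 from the start and TGACGTCA at -152. In the PPARGC1A inner window ACAAAG began at -174 and CATGTG at -129, and the reverse complements CTTTGT and CATTGT lay at -36 and -29. The outer PPARGC1A window held CACGTG at -123. The other 2 MITF windows and 1 of the 2 TFEC windows each held 1 SOX string, while the 3 TFEB windows, the TFE3 window and the PPARGC1B window held none of the 6 strings. Among 35116 RefSeq windows of 300 bases, TGACGTCA occurred in 1.85%, ATCAAAG in 2.62%, CACGTG in 7.26%, ACAATG in 10.8%, CATGTG in 11.1% and ACAAAG in 16.1%. A match describes letters only, since no binding was measured. Other SOX site variants and sequence outside the windows were not searched, so a window without these strings may still hold SOX sites.

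Each library held between 70075002 and 78148565 counts assigned to genes, and levels are given as CPM, gene counts divided by library size after TMM scaling (edgeR). At this depth 3 counts correspond to 0.0383 to 0.0417 CPM. SOX10, the targeted gene, stood at 240.8, 237.2 and 223.1 CPM in the control libraries and at 47.16, 47.76 and 41.46 CPM in the knockout libraries, 19.45% of the control mean (log2 fold change -2.36, adjusted p = 1.84e-07, edgeR quasi-likelihood test with Benjamini-Hochberg adjustment over all genes tested). The melanocyte lineage markers S100B and CSPG4 were present in the controls at 32.9 and 164.5 CPM on average. In the knockout they fell to 1.28 and 122.5 CPM (adjusted p = 1.17e-07 and 0.0233, edgeR). The pigment markers MLANA and PMEL were under 1 CPM on average in both groups, and TYR had at most 1 count in any library. In the controls the labelled melanoma identity therefore rested on S100B, CSPG4 and SOX10 rather than on pigment genes.

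Of the 6 genes, 4 rose in the knockout (MITF, TFEB, TFEC and PPARGC1A), none fell, and TFE3 and PPARGC1B did not pass the test, with an adjusted p under 0.05 as the threshold. Among all 19263 genes tested, 28% passed, 14% as higher and 14% as lower in the knockout, and the median log2 fold change was -0.02. The 4 genes that rose also had knockout libraries all above their control libraries, which held for 20% of all genes tested, and 3 of them rose at least 2-fold, as did 6.1% of all genes tested. These 3, MITF, TFEC and PPARGC1A, also passed a test against a 2-fold change (glmTreat), which 3.42% of all genes tested passed as higher. In bulk RNA a change in the number of cells that express a gene and a change in RNA per cell cannot be told apart.

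**Figure D1:**
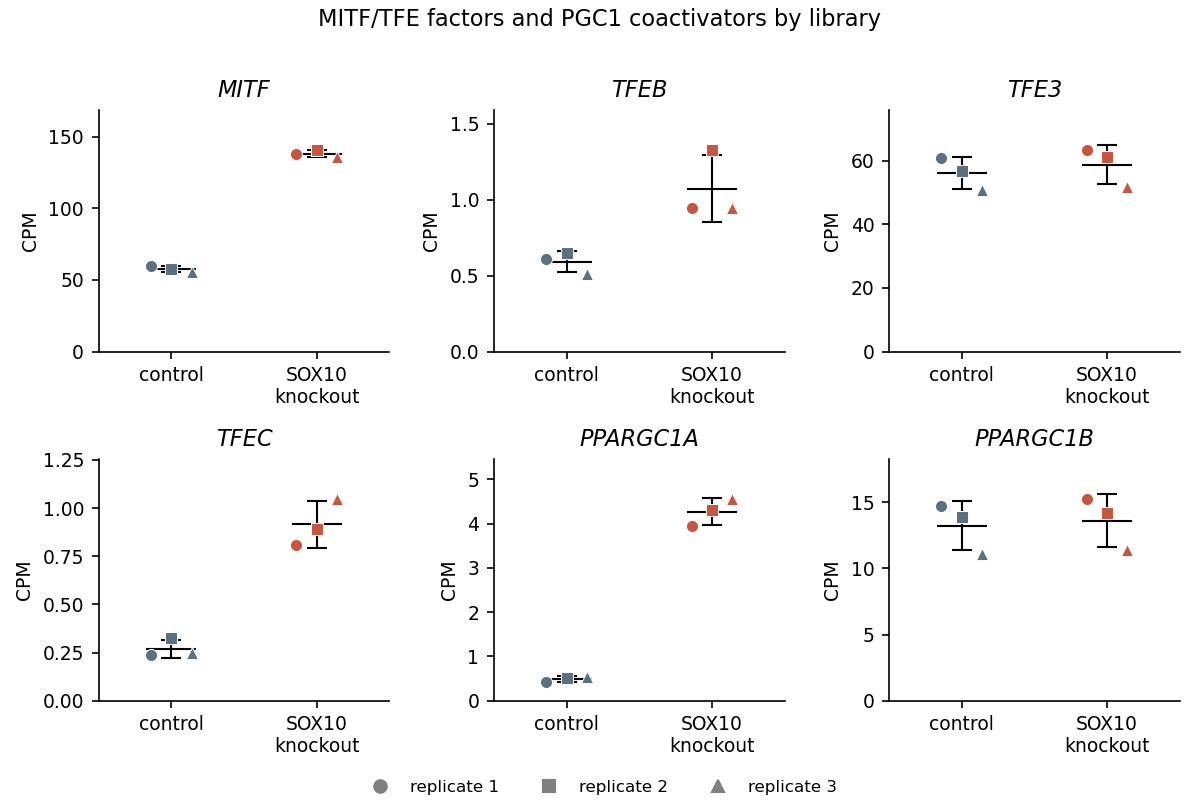
CPM of each of the 6 genes in its own panel (linear axes from 0), with 1 point per library, the replicate number as the shape, a long bar at the group mean and error bars of 1 SD. MITF, TFEB, TFEC and PPARGC1A have every knockout point above every control point, while the groups of TFE3 and PPARGC1B overlap.

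MITF (ENSG00000187098) lies on the plus strand of chromosome 3 at 69739435 to 69968337 (GRCh38) and has 18 annotated transcripts from several starts. Its level was 59.57, 57.7 and 55.28 CPM in the control libraries and 138, 140.8 and 136.2 CPM in the knockout libraries. Each knockout library lay far above the highest control, and both groups were tight. The means were 57.5 ± 2.15 and 138 ± 2.29 CPM (SD, n = 3 each), a 2.41-fold difference with a log2 fold change of 1.27 (SE 0.06, 95% confidence interval 1.13 to 1.40, adjusted p = 9.86e-07, edgeR). Counts were summed over the whole gene, so the melanocyte form, whose promoter is shown above, and the forms from the outer starts cannot be told apart. MITF rose while SOX10 fell, and 971 genes tested had a larger log2 fold change.

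TFEB (ENSG00000112561), on the minus strand of chromosome 6 at 41683978 to 41736259, was much scarcer. It had 44, 48 and 37 counts in the controls, or 0.612, 0.647 and 0.513 CPM, against 68, 104 and 74 counts in the knockout libraries, or 0.945, 1.33 and 0.944 CPM. The groups did not overlap, but knockout replicate 2 stood well above its 2 companions. The means of 0.591 ± 0.0695 and 1.07 ± 0.222 CPM (SD, n = 3) differed 1.81-fold, with a log2 fold change of 0.86 (SE 0.21, 95% confidence interval 0.37 to 1.35, adjusted p = 0.0177, edgeR). Without knockout replicate 2 the log2 fold change was 0.68 and the adjusted p was 0.073, so the call rested on that library.

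TFE3 (ENSG00000068323) occupies chromosome X from 49028726 to 49043486 on the minus strand. It was measured at 60.78, 56.86 and 50.65 CPM in the controls and at 63.34, 61.21 and 51.71 CPM in the knockout. The 2 groups overlapped over most of their range, and replicate 3 was the lowest library in both. The log2 fold change was 0.07 (SE 0.10, adjusted p = 0.676, edgeR), and its 95% interval of -0.16 to 0.29 leaves room for a knockout level between 0.897 and 1.22 times the control. The interval lies wholly below the 2.41-fold difference of MITF.

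TFEC (ENSG00000105967) spans 115935148 to 116159896 on the minus strand of chromosome 7. It had 17, 24 and 18 counts in the controls and 58, 70 and 82 in the knockout, which are 0.236, 0.324 and 0.250 CPM against 0.806, 0.894 and 1.05 CPM. Even the lowest knockout library held more than the highest control. The means of 0.270 ± 0.0470 and 0.915 ± 0.121 CPM (SD, n = 3) differed 3.39-fold, with a log2 fold change of 1.75 (SE 0.23, 95% confidence interval 1.23 to 2.29, adjusted p = 0.000590, edgeR). TFEC is known from macrophages, and of 10 macrophage markers AIF1, TYROBP and MS4A7 had 0 counts in all 6 libraries. Only 3 of the 10 were abundant enough to test, CSF1R rising from 0.175 to 0.748 CPM and LYZ falling from 12.15 to 1.64 CPM. The summed level of the list, most of it LYZ, was 11.0 to 14.4 CPM in the controls and 2.22 to 2.95 CPM in the knockout. The sum thus followed LYZ and says little of the other markers, of which CSF1R rose.

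PPARGC1A (ENSG00000109819), on the minus strand of chromosome 4 at 23755041 to 23904089, had the largest difference of the 6 genes. The controls held 30, 38 and 39 counts (0.417, 0.512 and 0.541 CPM) and the knockout libraries 284, 338 and 357 counts (3.95, 4.32 and 4.55 CPM). The 2 groups were far apart. From 0.490 ± 0.0648 to 4.27 ± 0.306 CPM (SD, n = 3) the gene rose 8.72-fold, with a log2 fold change of 3.12 (SE 0.15, adjusted p = 1.17e-06, edgeR) and a 95% interval of 6.89 to 11.0 in fold. Only 212 of the genes tested had a larger log2 fold change. The annotated antisense genes within its borders share no exon base with it, and the more abundant of them, ENSG00000249453, had 20, 6 and 8 counts in the controls and 7, 6 and 10 in the knockout.

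PPARGC1B (ENSG00000155846), on the plus strand of chromosome 5 at 149730298 to 149855022, was the more abundant coactivator and did not pass the test. It was measured at 14.69, 13.91 and 11.12 CPM in the controls and at 15.23, 14.21 and 11.4 CPM in the knockout. The groups overlapped almost completely, again with replicate 3 lowest in both. The log2 fold change was 0.04 (SE 0.14, adjusted p = 0.872, edgeR), with a 95% interval of -0.27 to 0.35, or 0.828 to 1.27 in fold. The microRNA gene MIR378A within PPARGC1B had 0 counts, but the libraries were made with an mRNA kit. These counts therefore do not show that the microRNA is absent.

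**Figure D2:**
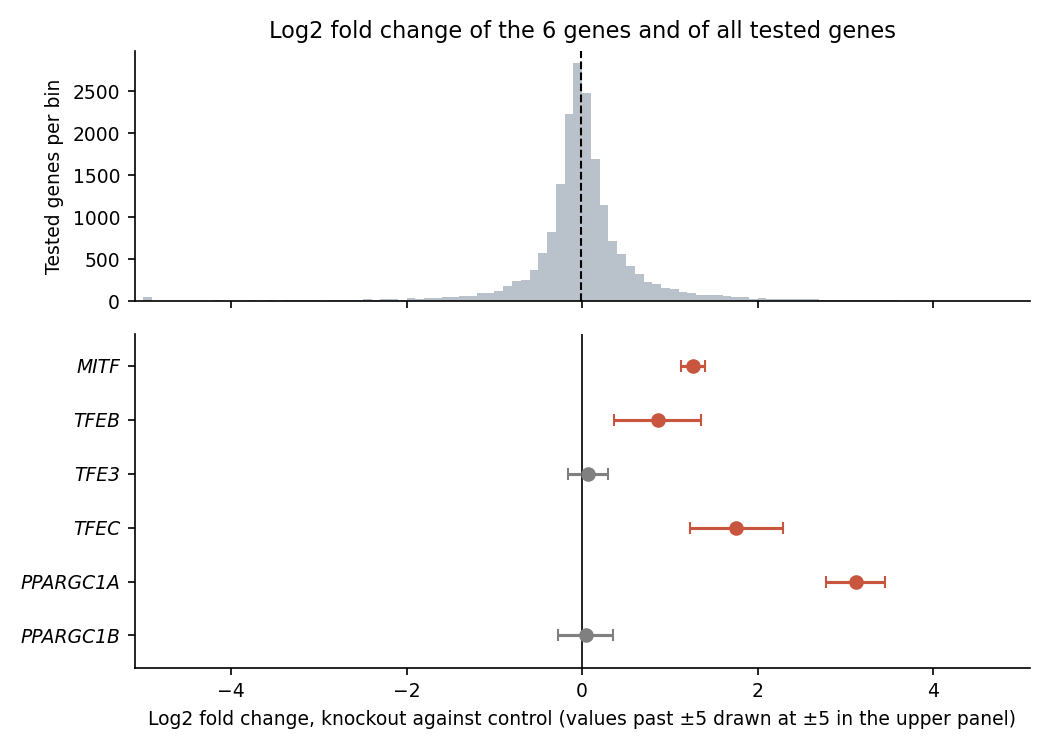
The upper panel is a histogram of the log2 fold change (knockout against control, edgeR) of all 19263 genes tested, with a dashed line at their median of -0.02; the lower panel gives the 6 genes with 95% confidence intervals. The intervals of MITF, TFEB, TFEC and PPARGC1A (red) lie above 0 and those of TFE3 and PPARGC1B (grey) include it.

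Levels were compared between genes as CPM per kilobase of annotated exon (exon union of GENCODE 29). On this scale the control order was TFE3 at 13.1 ± 1.19, MITF at 8.01 ± 0.299, PPARGC1B at 1.03 ± 0.146, TFEB at 0.105 ± 0.0123, PPARGC1A at 0.0451 ± 0.00596 and TFEC at 0.0312 ± 0.00544 (SD, n = 3). The libraries of no neighbouring pair in that order overlapped, PPARGC1A and TFEC coming closest at 0.0384 to 0.0498 and 0.0273 to 0.0374. In the knockout MITF stood at 19.3 ± 0.319 and TFE3 at 13.7 ± 1.45, so these 2 changed places. PPARGC1B followed at 1.06 ± 0.154. PPARGC1A at 0.393 ± 0.0281 passed TFEB at 0.190 ± 0.0392, and TFEC was again last at 0.106 ± 0.0140. The order was the same in each group when the longest annotated transcript was used as the length.

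MITF made up 36.7%, 37.4% and 39.2% of the summed length-scaled level of the 4 MITF/TFE factors in the controls and 56.1%, 57.3% and 60.6% in the knockout. The share was higher in every knockout library than in any control, by 20.2 percentage points on average (exact two-sided permutation test, p = 0.1, the smallest that 3 against 3 libraries can give). TFE3 held 61.6 ± 1.28% in the controls and 41.1 ± 2.37% in the knockout, although its own level did not pass the test. TFEB and TFEC together stayed under 1% of the family sum in both groups. The sum itself was 19.6 to 22.6 CPM per kilobase in the controls and 31.3 to 34.3 in the knockout.

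**Figure D3:**
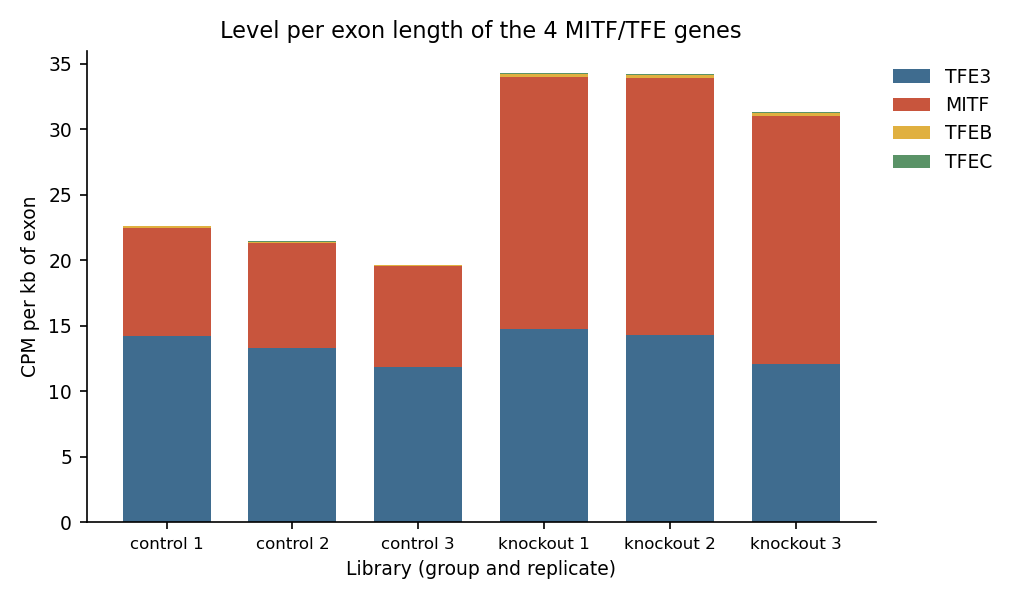
Stacked length-scaled levels (CPM per kilobase of exon union) of TFE3, MITF, TFEB and TFEC in each of the 6 libraries. The MITF segment is shorter than the TFE3 segment in the 3 controls and longer in the 3 knockout libraries, and TFEB and TFEC are thin slivers at the top.

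Ratios of 2 genes within a library asked whether family members differed in their change. The MITF to TFE3 ratio was 0.613 in the controls and 1.41 in the knockout, a log2 difference of 1.20 with no overlap between groups (exact permutation p = 0.1, 0.133 after Benjamini-Hochberg adjustment over 4 ratios). PPARGC1A to PPARGC1B went from 0.0439 to 0.374, a log2 difference of 3.09 without overlap (exact permutation p = 0.1, adjusted 0.133). MITF to TFEC went the other way, from 259 to 183, a log2 difference of -0.50 without overlap (exact permutation p = 0.1, adjusted 0.133). MITF to TFEB did overlap between groups, with a log2 difference of 0.42 (exact permutation p = 0.2, adjusted 0.2). None of the 4 can fall under 0.05 with 3 libraries a group.

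The genes whose profile over the 6 libraries was closest to each member were found by the root mean square difference of log2 values centred on the control mean, a measure on which smaller is more alike. MITF was nearest to RGL1 (0.0398) and TRPV2 (0.0502), a calcium-permeable channel gene. Nearest to TFEB were PINK1 (0.0739), which encodes a kinase that marks damaged mitochondria, and the polarity gene PARD6A (0.0771). TFEC came closest to DPF3 (0.0895) and SLC12A8 (0.0973). PPARGC1A was nearest to ABCG2 (0.0801), a drug efflux transporter gene that went from 11.6 ± 0.673 to 85.1 ± 5.84 CPM, and to ACSL5 (0.0894), a gene of fatty acid activation. TFE3 and PPARGC1B differed little between the groups, but both fell from replicate 1 to replicate 3 within each group. Closest to TFE3 were PPP1R10 (0.00801) and CPD (0.0219), and closest to PPARGC1B were GRIA2 (0.0269) and IQSEC1 (0.0360).

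Upstream of MITF, 21 genes known to regulate its transcription were tested. Of these, 5 rose (23.8%, beside 14% of all genes tested) and 11 fell (52.4%, beside 14%), with a median log2 fold change of -0.39 beside -0.02 over all genes. The list was not split into activators and repressors of MITF, so these counts give no direction of input to MITF. SOX9, a close relative of SOX10, rose from 2.00 ± 0.228 to 69.7 ± 7.02 CPM (log2 fold change 5.12, adjusted p = 4.50e-08, edgeR). TFAP2A, which works with MITF at melanocyte genes, rose from 9.54 ± 0.880 to 15.2 ± 2.05 CPM (0.67 on the log2 scale, adjusted p = 0.00273, edgeR). POU3F2, the BRN2 factor of neural lineages, fell from 47.8 ± 5.31 to 6.65 ± 0.734 CPM (log2 fold change -2.85, adjusted p = 5.47e-07, edgeR). LEF1, a factor of the WNT pathway whose string stands in the MITF stretch above, fell from 43.4 ± 2.46 to 12.7 ± 0.874 CPM (-1.77 on the log2 scale, adjusted p = 8.42e-07, edgeR). PAX3, a known activator of MITF chosen here after its values were seen, fell by 0.39 on the log2 scale (adjusted p = 0.00681, edgeR). CREB1, which binds the cAMP response element and was chosen in the same way, had a log2 fold change of -0.10 and did not pass.

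TFEB, TFE3 and MITF are held in the cytoplasm by phosphorylation at the lysosome, and 33 genes of that control were tested. Of these 3 rose (9.09%, beside 14% of all genes tested), 2 fell (6.06%, beside 14%) and 28 did not pass, with a median log2 fold change of 0.00; without control replicate 2 only 1 rose. PPP3CA, a catalytic subunit of calcineurin, the phosphatase that frees TFEB, rose from 53.3 ± 4.13 to 88.3 ± 6.37 CPM (0.73 on the log2 scale, adjusted p = 0.000223, edgeR). MAP4K3, a kinase of the same pathway, rose by less, from 52.9 ± 1.30 to 62.9 ± 0.759 CPM (0.25, adjusted p = 0.0101, edgeR). GSK3B and XPO1, a kinase and an exporter that move these factors out of the nucleus, fell by 0.33 and 0.18 on the log2 scale, with adjusted p values of 0.0209 and 0.0421 by edgeR. The GSK3B call was lost without control replicate 1 or 2 or knockout replicate 2 or 3, the XPO1 call without any 1 of the 6 libraries, and the MAP4K3 call without replicate 2 of either group. The genes for mTOR and folliculin, MTOR and FLCN, had log2 fold changes of -0.11 and 0.03 and did not pass (chosen after their values were seen).

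Of 38 known MITF target genes, 29 were tested, 11 of which rose (37.9%, beside 14% of all genes tested) and 8 of which fell (27.6%, beside 14%), with a median log2 fold change of -0.09. MLPH, which encodes melanophilin of melanosome transport, rose from 2.90 ± 0.749 to 15.3 ± 0.398 CPM (log2 fold change 2.40, adjusted p = 8.21e-06, edgeR). CTSK, the gene of cathepsin K, rose from 11.2 ± 0.793 to 24.7 ± 0.827 CPM (1.14 on the log2 scale, adjusted p = 8.91e-06, edgeR). DCT, the gene of a pigment enzyme, fell from 1.62 ± 0.175 to 0.0657 ± 0.0258 CPM (-4.59, adjusted p = 5.45e-06, edgeR). TBX2, a repressor that delays senescence, fell from 15.4 ± 1.20 to 3.20 ± 0.311 CPM (-2.27, adjusted p = 9.42e-07, edgeR). The targets did not all move in the direction of MITF. MLANA and PMEL, at averages of 0.874 and 0.623 CPM in the controls and 0.770 and 0.370 CPM in the knockout, did not pass. The pigment genes TYRP1 and GPR143, named after their values were seen, rose from low levels, TYRP1 from 0.0731 to 0.230 CPM (adjusted p = 0.0210, edgeR) and GPR143 from 0.159 to 0.483 CPM (adjusted p = 0.0255, edgeR). OCA2, another gene of the list named after its values were seen, fell from 1.59 to 0.365 CPM (-2.11 on the log2 scale, adjusted p = 0.0001675, edgeR). TYR and SLC45A2 were too low to test, and SLC45A2 had 4, 2 and 5 counts in the controls and 1, 1 and 0 in the knockout. Of 11 melanocyte markers, some of them MITF targets, 9 were tested, of which TYRP1 and GPR143 rose (22.2%, beside 14%) and 5 fell (55.6%, beside 14%). Their sum, most of it SOX10 and CSPG4, was 418 to 474 CPM in the controls and 165 to 197 CPM in the knockout. Of 10 fibroblast markers 8 were tested, 6 rose (75%, beside 14%) and 1 fell (12.5%, beside 14%), and DPT was at 0. Their sum was 10.9 to 14.7 CPM in the controls and 22.0 to 24.9 CPM in the knockout. Some that rose were near the floor, with 2, 2 and 8 control counts for COL1A2 and 3, 2 and 0 for COL3A1. The part of these markers in the levels of the 6 genes was not tested.

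Among 44 tested genes of the CLEAR network, the lysosome and autophagy genes that TFEB and TFE3 activate, 11 rose (25%, beside 14% of all genes tested) and 1 fell (2.27%, beside 14%), with a median log2 fold change of 0.02. Only 6 genes of this list rose without control replicate 2 or without knockout replicate 2. With replicate number as a block in the fit, 16 rose and 13 fell, beside 4637 higher and 5176 lower over all genes tested. SQSTM1, the gene of the autophagy receptor p62, rose from 189.7 ± 3.96 to 314 ± 8.84 CPM (0.73 on the log2 scale, adjusted p = 2.12e-05, edgeR). CTSB, the gene of cathepsin B, rose from 122.5 ± 4.92 to 173 ± 1.09 CPM (0.50, adjusted p = 0.000251, edgeR). CTSF, which encodes cathepsin F, fell from 15.9 ± 1.25 to 11.1 ± 1.13 CPM (-0.51, adjusted p = 0.00477, edgeR). Known members that did not pass and were picked after their values were seen include LAMP1 and CTSD, at log2 fold changes of -0.12 and -0.16.

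The nuclear receptors, cofactors and enzymes that work with PGC1 proteins gave calls in both directions: 4 of 34 tested rose (11.8%, beside 14% of all genes tested) and 6 fell (17.6%, beside 14%), with a median log2 fold change of -0.12. RXRG, a retinoid receptor gene, fell from 16.0 ± 0.909 to 0.215 ± 0.0440 CPM (-6.21, adjusted p = 4.40e-08, edgeR). MEF2C, a muscle and neural factor that PGC1-alpha coactivates, fell from 11.5 ± 1.12 to 4.92 ± 0.411 CPM (-1.22, adjusted p = 4.05e-05, edgeR). PRKAA2, a catalytic subunit of the energy sensor AMPK, rose from 18.9 ± 0.998 to 33.4 ± 1.26 CPM (0.82, adjusted p = 3.62e-05, edgeR). THRB, a thyroid hormone receptor gene, rose from 15.95 ± 2.19 to 38.05 ± 3.03 CPM (1.25, adjusted p = 4.67e-05, edgeR). Of the partners best known for mitochondrial genes, chosen here after their values were seen, NRF1 fell by 0.30 on the log2 scale (adjusted p = 0.00633, edgeR), and ESRRA had a value of 0.22 and did not pass.

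Downstream of PGC1, 31 genes of mitochondrial biogenesis and fuel use were tested, of which 3 rose (9.68%, beside 14% of all genes tested) and 2 fell (6.45%, beside 14%), with a median log2 fold change of 0.03; the number that rose was 1 without control replicate 2. PDK4, a kinase that turns cells from glucose to fat oxidation, rose from 24.5 ± 0.457 to 55.8 ± 4.39 CPM (1.18, adjusted p = 5.96e-06, edgeR). UCP2, an inner membrane carrier gene, rose from 6.43 ± 0.435 to 8.25 ± 0.307 CPM (0.36, adjusted p = 0.0136, edgeR), a call lost without control replicate 2. TFB1M, which modifies mitochondrial ribosomal RNA, fell from 45.1 ± 9.27 to 27.9 ± 4.42 CPM (-0.69, adjusted p = 0.0120, edgeR). CPT1B, a fatty acid importer of muscle mitochondria, fell from 0.284 ± 0.0573 to 0.115 ± 0.0382 CPM (-1.30, adjusted p = 0.0289, edgeR) and lost its call without control replicate 1 or 2 or knockout replicate 2 or 3. TFAM, the main packaging factor of mitochondrial DNA, was chosen after its values were seen and had a log2 fold change of 0.08 that did not pass.

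Of 75 nuclear genes for subunits of the respiratory chain and ATP synthase, none rose by edgeR (0%, beside 14% of all genes tested). None rose at an unadjusted p under 0.05 or by DESeq2 or limma-voom, all without a replicate block. The 1 that fell (1.33%, beside 14%) was NDUFS6, a subunit of complex I, from 60.7 ± 2.86 to 52.7 ± 1.96 CPM (-0.20, adjusted p = 0.0431, edgeR). Its call was lost on leaving out any 1 of the 6 libraries and by DESeq2. The median log2 fold change of the 75 was 0.05, and without control replicate 3 the number that rose was 8. Over all genes, leaving out 1 library each gave 1986 to 2935 higher. With replicate number as a block in the fit, 28 of the 75 rose and 2 fell. Among all genes tested, the fit with the block gave 4637 higher and 5176 lower. The counts of the 75 thus depended on how replicate numbers were treated. None of the 13 protein genes of the mitochondrial genome passed by edgeR (beside 28% of all genes tested), DESeq2 or limma-voom, or at an unadjusted p under 0.05. With the block 6 of the 13 rose and 1 fell. MT-CO1, their most abundant gene, stood at 1025 ± 244.4 CPM in the controls and 1168 ± 214.4 CPM in the knockout (log2 fold change 0.19, adjusted p = 0.498, edgeR).

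**Figure D4:**
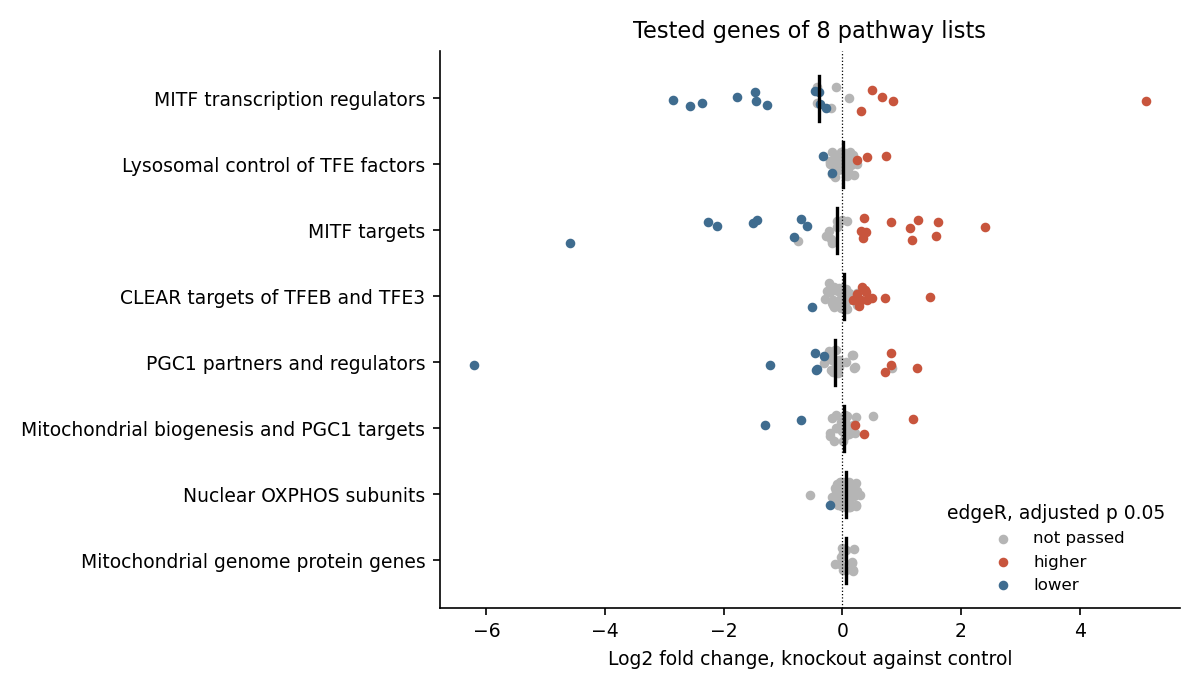
Log2 fold change (knockout against control) of every tested gene in 8 lists around the MITF/TFE and PGC1 genes; each point is 1 gene, coloured by whether it was higher, lower or did not pass (edgeR, adjusted p under 0.05), and each black bar is the median of a list. The regulators and targets of MITF spread widely to both sides, while the respiratory chain genes lie close to 0.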

How the data were processed

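RNA-seq libraries from A375 cells, 3 control and 3 SOX10 knockout, were grouped by their titles. Per the labels, total RNA was purified on columns and went into a stranded mRNA library kit. The deposited values are whole-number counts per gene, not normalized. Per the submitters' processing notes, the tools were HISAT2 and HTSeq and the build was hg38; versions and the strand setting of counting were not given in the sources used here. All 6 columns were mapped to samples and all 58721 identifiers were found in GENCODE 29.

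Genes were filtered with filterByExpr (19263 kept), scaled by TMM and tested two-sided with edgeR 4.0.16 (glmQLFit and glmQLFTest, groups only) in R 4.3.3, with Benjamini-Hochberg adjustment over all genes tested and a threshold of 0.05. Depth was 70075002 to 78148565 counts per library, so genes under about 3 counts cannot be compared. No libraries were duplicates. Ratios and shares were tested by exact permutation over 20 assignments of libraries. Profiles used log2(CPM + 0.1) among genes that averaged 1 CPM or more. Overlap with GENCODE 29 exons gave lengths and shared bases. The fit was tested on simulated data.

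Named genes were the 6 members, SOX10, the 2 genes of smallest p that rose and the 2 that fell in each list (where none passed, the most abundant), and the 2 nearest profiles to each member; others are marked. An item withheld for evaluation is not reported here. The members and the lists were chosen with earlier results of these data known. Alternatives were DESeq2 1.42.0, limma-voom (limma 3.58.1), other scaling and filters, a test against 2-fold (glmTreat), a replicate block and leaving out each library.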

Additional observations from a re-analysis of the deposited data

How the results depend on the processing

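MITF, TFEC and PPARGC1A stayed higher and past the threshold under every alternative that tested them, with log2 fold changes of 1.24 to 1.31, 1.65 to 1.91 and 3.03 to 3.19. TFEB was 0.68 to 0.95 on leaving out 1 library each; its call was lost without knockout replicate 2 and against 2-fold (0.86, adjusted p = 1, glmTreat). TFEB and TFEC were not tested under the filter of 1 CPM. The low counts of TFEB and TFEC (17 to 104 per library) limit their precision.

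The genes that did not pass could change sign. On leaving out 1 library each, TFE3 ranged from -0.0026 to 0.15, PPARGC1B from -0.073 to 0.15, PPP1R10 from -0.012 to 0.15, CPD from -0.016 to 0.14, GRIA2 from -0.11 to 0.12 and IQSEC1 from -0.077 to 0.13. Each lowest value came without control replicate 3. Without knockout replicate 1 PPARGC1B was -0.040, GRIA2 -0.044 and IQSEC1 -0.074, and without knockout replicate 2 GRIA2 was -0.0046 and IQSEC1 -0.012. The cause was not tested.

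The replicate block raised the calls over all genes to 4637 higher and 5176 lower, and left the call of each of the 6 genes as it was. Deviations from the group mean correlated at 0.302, -0.00438 and 0.314 between same-numbered libraries. They correlated at -0.332 between control replicate 3 and knockout replicate 1, and at -0.284 between control replicate 1 and knockout replicate 3. Replicates 1 and 3 thus matched their own number best. Every correlation with a replicate 2 lay between -0.0574 and 0.0585, too small to tell whether replicate 2 matched its own number. The labels do not say that numbers are pairs, so they were not taken as pairs. Spread shared by number therefore stays in the main test. With the block the counts higher and lower were 10 and 13 for lysosomal control, 11 and 8 for mitochondrial biogenesis and 16 and 13 for CLEAR. They were 28 and 2 for nuclear respiratory chain genes, 6 and 1 for the mitochondrial genome and 8 and 20 for PGC1 partners. These stand beside the 4637 and 5176 over all genes. MT-CO1 passed with the block (log2 fold change 0.20, adjusted p = 3.94e-06, edgeR) and ranged from 0.036 to 0.41 over left-out libraries without it. Of the ratios, none can pass in sign flips of the pairs (smallest p 0.25).

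Against 2-fold, 659 genes were higher and 573 lower; the counts were 0 and 0 for CLEAR, lysosomal control and mitochondrial biogenesis, 1 and 3 for MITF targets, 1 and 7 for MITF regulators, 0 and 1 for PGC1 partners, and 0 lower for nuclear respiratory chain genes. DESeq2 gave 1 lower for biogenesis and 0 lower for the nuclear respiratory chain. The 1 CPM filter gave 5 higher for lysosomal control and 1 lower for biogenesis. With no filter lysosomal control had 1 lower and the nuclear respiratory chain 0. With total counts alone lysosomal control had 6 higher and 0 lower and the nuclear respiratory chain 0 lower.

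Leaving out 1 library each gave 1986 to 2935 genes higher and 1794 to 2958 lower, with the lowest lower count without knockout replicate 2. The ranges were 1 to 4 higher and 0 to 2 lower for lysosomal control, 6 to 11 and 1 to 4 for CLEAR, 1 to 4 and 1 to 3 for biogenesis, and 0 to 8 higher and 0 lower for the nuclear respiratory chain.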

Other observations

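Osteoclasts depend on MITF and TFE3, and 11 genes known from their resorption programme were looked up after other values had been seen, so these counts are a description. Of 8 tested, 3 rose and 3 fell, beside 14% higher and 14% lower among all genes tested, and the median log2 fold change was -0.03. CLCN7 and OSTM1 did not pass, at log2 fold changes of -0.25 and 0.19. The secreted or lysosomal enzymes CTSK, ACP5 and MMP9 rose, ACP5 from 11.2 ± 1.18 to 19.8 ± 0.388 CPM (adjusted p = 0.000153, edgeR). MMP9 was near the floor, with 6, 2 and 1 counts in the controls and 12, 22 and 11 in the knockout. The 3 that fell encode surface proteins, while the untested receptor gene OSCAR had 2, 2 and 1 counts in the controls and 4, 3 and 7 in the knockout. The integrin gene ITGB3 went from 72.4 ± 8.25 to 12.9 ± 1.43 CPM (adjusted p = 9.85e-07, edgeR). TNFRSF11A, the gene of the receptor RANK, went from 1.39 ± 0.177 to 0.347 ± 0.123 CPM (adjusted p = 0.000534, edgeR). The fusion gene DCSTAMP went from 0.371 ± 0.0279 to 0.0348 ± 0.0262 CPM (adjusted p = 0.000738, edgeR). ATP6V0D2, an osteoclast subunit of the proton pump and a known MITF target, had 0 counts in the 3 controls and 17, 8 and 8 in the knockout, at least 3.56-fold higher than a floor of 3 counts per library.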
